A study of Triticum aestivum with 15 samples.

Results

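Wheat plants that carry the cytoplasm of Aegilops uniaristata were compared with plants that carry the cytoplasm of Aegilops tauschii, both with the nucleus of the wheat cultivar Chris. The line T183 holds the Ae. uniaristata cytoplasm (plasmon type N), and the line T195 that of Ae. tauschii, which the labels call Aegilops squarrosa (plasmon type D). Both are alloplasmic lines made by repeated backcrossing to Chris, so that in each the chloroplasts and mitochondria come from the wild grass and the chromosomes from wheat. Euplasmic Chris, which has its own wheat cytoplasm, served only as a common comparison for the lines. RNA was taken from the second fully expanded leaf of seedlings aged 14 days, grown in soil at the higher of the study's light intensities, and each array is a replicate of plants bulked from a pot. The members were the 3 arrays labelled T183 and the 3 labelled T195, 6 of the 15 arrays of the series, with 3 arrays of Chris beside them. Each line stands for 1 seed stock, so a difference between T183 and T195 is one between these stocks, and any wild nuclear segment left after the backcrosses cannot be told apart from the cytoplasm.

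Chloroplasts and mitochondria keep small genomes of their own. These encode part of the photosynthetic and respiratory complexes, together with ribosomal proteins and a few factors for splicing and assembly, while most organelle proteins are made from nuclear genes and imported. In leaves the plastid sends signals that adjust nuclear genes, such as those of the light-harvesting antenna and of tetrapyrrole synthesis. A pair of lines with one nucleus and separate cytoplasms therefore allows organelle and nuclear transcripts to be read side by side.

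The Affymetrix Wheat Genome Array carried 61290 probe sets, 111 of them controls. A probe set was tested where its signal, a MAS 5.0 intensity, lay above the 55th percentile of the array on 3 or more of the 6 arrays, which kept 27989 and left out 33190. The 55th percentile lay between 92.3 and 112.5 units in T183 and between 90.0 and 99.6 units in T195. A difference is given as T183 minus T195 on the scale log2(signal + 16), with the standard error of the limma model, and a probe set is said to have differed where the adjusted p was at most 0.05 and the difference at least 2-fold. Where the 3 arrays of the dimmer line all lay under that percentile, the fold is written as "at least" and was computed with dim signals raised to it. Affymetrix identifiers stand in the plots, and sequences that share the stem of their identifier, which the array's designers clustered together, are called a cluster. The array was built from wheat sequences, and how well its probes match the organelle genomes of Ae. uniaristata and Ae. tauschii was not tested. RNA from whole leaves was used, so fewer cells of a type and less RNA per cell cannot be told apart.

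The arrays of the lines lay close together. R-squared was 0.915 to 0.943 among T183 arrays, 0.927 to 0.937 among T195 arrays and 0.914 to 0.948 between the lines. T183 replicate 3 was nearest to Chris replicate 1, at an R-squared of 0.949, and T195 replicate 2 was nearest to T183 replicate 3, at 0.948, while the other arrays of T183 and T195 were nearest to one of their own line. As a check of the leaf label, 9 of 28 probe sets annotated as ribulose bisphosphate carboxylase (older symbol rbcl), the enzyme of carbon fixation, were tested and 19 were left out, and the second brightest read 38170 to 43930 in T183 and 38810 to 45010 in T195. Other leaf probe sets were dim. A small subunit of that enzyme averaged 153.6 in T183 and 246.0 in T195, and 6 of 11 probe sets of the chlorophyll-binding antenna LHCII were left out. Of 11 probe sets of gliadin and glutenin, the storage proteins of the seed, 2 were tested and averaged at most 113.7 in either line. The ratio of 3' to 5' signal of actin, a sign of RNA integrity, ran from 1.053 to 1.226 in T183 and from 0.736 to 1.032 in T195, without overlap, whereas the ratio of GAPDH ran from 0.372 to 0.694 in T183 and from 0.264 to 0.666 in T195. That of EF1a was spread more widely, from 0.924 to 3.287 in T183 and from 0.177 to 6.525 in T195. The part of RNA integrity in the differences below was not tested. The probe set of polyubiquitin, the reference of the study's qRT-PCR, differed by 0.04 ± 0.17.

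Few transcripts separated the cytoplasms. In limma 16 probe sets differed, which is 0.0572% of those tested, 12 of them higher in T183 (0.0429%) and 4 lower (0.0143%). The balance moved with the scaling, as 12 were higher and 7 lower once the medians of the arrays had been set equal. The median difference of all tested probe sets was -0.01, the median size 0.16, and 378 (1.35%) reached 2-fold without regard to p. Without adjustment 1791 (6.4%) had a p under 0.05 in limma, 1011 higher (3.61%) and 780 lower (2.79%), and 1218 (4.35%) did in the Welch test that the study's methods name. The count fell when an array was left out. It was 5 without T183 replicate 3, 10 without T183 replicate 1 and 11 without T183 replicate 2. For T195 it was 6 without replicate 2, 6 without replicate 3 and 12 without replicate 1. The plastid probe sets of rps12, the permease and ccsA and 2 unknown sequences, called A and B here, passed in each of the 6 fits that left out an array. At the 16 probe sets no array of T183 overlapped with one of T195, which was also the case at 11.5% of all tested.

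**Figure D1:**
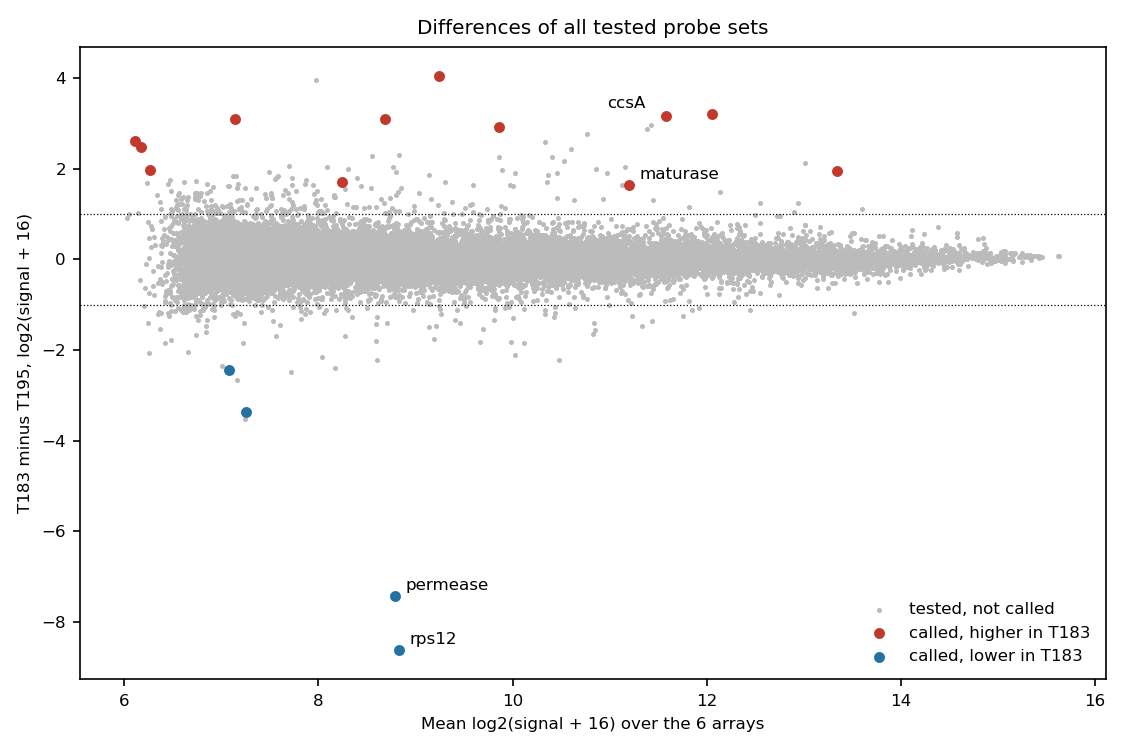
Difference between T183 and T195 on the log2(signal + 16) scale (vertical axis) against the mean log2(signal + 16) over the 6 arrays (horizontal axis) for the 27989 probe sets tested, each a point, with the 2-fold limits as dotted lines. The 16 probe sets that differed are coloured, and rps12 and the permease lie apart from the rest at -8.63 and -7.44.

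By annotation the 16 fell into a plastid group of 5, 1 maturase probe set that the study places in the mitochondrion, 1 with a nuclear match and 9 of no known identity. The plastid group was the 5 that lie in sequence clusters of the array holding a plastid gene, 3 higher and 2 lower among 56 such probe sets tested. The study's annotation covers 7 of the 16, and it was drawn from these arrays, so the share of organelle genes among them is no independent evidence. None of the 16 has a gene in the platform annotation.

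Among the plastid genes, rps12 set the lines apart most. The plastid rps12 gene encodes a protein of the small ribosomal subunit whose messenger is joined from separate transcripts by trans-splicing. At its probe set the signal was 8.87, 1.35 and 12.02 in T183, against 7084, 10620 and 9926 in T195, with 22480, 19060 and 23260 in Chris. T183 was thus at the background on each array, and the T195 arrays lay below those of Chris. The difference was -8.63 ± 0.25 (limma adjusted p 6.89e-06), or at least 77.4-fold lower in T183. The study's annotation calls this sequence a mitochondrial ribosomal protein in its description and places it in the chloroplast, so its assignment to the plastid follows the compartment.

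A probe set of the same cluster is annotated as the permease of an ABC transporter, a membrane protein that moves substrates at the cost of ATP. It read 14.7, 22.4 and 16.2 in T183, against 5832, 5854 and 5751 in T195, with 23140, 19480 and 23820 in Chris. Again T183 was at the background, and the T195 arrays lay close together at an intermediate level. The difference was -7.44 ± 0.16 (limma adjusted p 1.83e-06), at least 49.7-fold lower in T183.

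Another member of that cluster ran the other way. This probe set, which has no annotation of its own, read 1439, 2235 and 4592 in T183, against 98.4, 105.9 and 222.8 in T195, with 442.7, 1054 and 741.2 in Chris. Its signal was 16.6-fold higher in T183, by 4.05 ± 0.45 (limma adjusted p 0.0377), but it passed in 1 of the 6 fits that left out an array. Of the 10 probe sets of the cluster 6 were tested, and the remaining 3 differed by -0.03, -0.01 and 0.06. Over the 6 members, 1 higher and 2 lower, the median was -0.02.

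The signal of ccsA was higher with the Ae. uniaristata cytoplasm. This plastid gene encodes a protein needed to attach heme to c-type cytochromes in the thylakoid. Its probe set read 8467, 9325 and 9578 in T183, against 914.7, 967.3 and 1153 in T195, with 4269, 4987 and 5434 in Chris. The lines lay on opposite sides of Chris, 8.92-fold apart, with a difference of 3.16 ± 0.17 (limma adjusted p 0.000496). The other tested probe set of this cluster gave -0.64 ± 0.42 (limma adjusted p 0.886).

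A cluster that holds rpl2 and other plastid genes of large-subunit ribosomal proteins had 1 member that was higher in T183 and none lower. That member, without an annotation of its own, read 2563, 1619 and 3951 in T183, against 350.6, 333.0 and 291.9 in T195, with 366.5, 489.1 and 474.8 in Chris. This was 7.52-fold higher in T183, by 2.91 ± 0.31 (limma adjusted p 0.0318), and here T195 stayed close to Chris. The probe set of rpl2, a core protein of the large subunit, read 14660, 22460 and 15380 in T183, against 2649, 5423 and 4306 in T195, with 15870, 11730 and 16350 in Chris. Its difference of 2.11 ± 0.30 did not pass after adjustment (limma adjusted p 0.12), although no arrays of the lines overlapped.

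The same held for other genes of the cluster. L23 gave 1.71 ± 0.26 (limma adjusted p 0.169) and L16 gave 1.05 ± 0.23 (0.458), again without overlap. A further member without annotation read 9343, 3899 and 12320 in T183, against 873.2, 1139 and 928.6 in T195, with 1208, 1469 and 1039 in Chris, and missed the threshold at 2.95 ± 0.39 (0.0907). The remaining 6 of the 11 tested members lay between -0.24 and 0.11, so that the cluster was split between members near 0 and members brighter in T183.

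L32, another plastid protein of the large ribosomal subunit, differed in the other direction without passing. Its probe set read 93.9, 160.8 and 84.4 in T183, against 458.4, 913.8 and 641.5 in T195, with 555.3, 1116 and 512.3 in Chris. The difference was -2.41 ± 0.31 (limma adjusted p 0.0785), and against Chris T183 gave -2.48 (0.0442) and T195 -0.08. The other 7 tested members of its cluster lay between -0.27 and 0.29. One of them is a chain of the plastid NAD(P)H dehydrogenase of cyclic electron transport, which averaged 176.0 in T183 and 134.1 in T195, with 6067 in Chris.

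The probe sets of psbE, the heme-binding alpha chain of cytochrome b559 in photosystem II, overlapped between the lines. The first (S1_at) read 369.7, 1016 and 520.3 in T183, against 583.2, 903.4 and 860.2 in T195, with 22410, 22340 and 25450 in Chris. Both lines lay far below Chris, and their difference was -0.39 with a 95% interval from -1.22 to 0.44. The second (S1_s_at) gave -0.26 with an interval from -1.18 to 0.65. These intervals leave room for a 2-fold difference in one direction.

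Of the other listed genes of photosynthesis encoded in the plastid, none passed except ccsA. The D1 protein, which carries the reaction centre of photosystem II, gave 0.05 ± 0.26. The small photosystem II subunit psbM gave 0.62 ± 0.33 and an ATP synthase CF0 subunit -0.34 ± 0.24. The interval of psbM ran from -0.14 to 1.39, past 2-fold, while those of D1 and the ATP synthase subunit stayed within 2-fold. Of the 7 probe sets for photosynthesis and electron transport 1, ccsA, differed, and their median was 0.05.

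Of the 10 probe sets for plastid gene expression, among which the permease was counted for its cluster, 2 differed, rps12 and the permease, with a median of 0.36. Those 2 lie in the same cluster, and whether they read separate RNAs was not tested. At an unadjusted p of 0.05, 8 of the 10 were listed by limma, 5 higher in T183 and 3 lower, where 6.4% of all tested were listed. Several of the 10 share a cluster, so they are not independent of one another. Among those not passing after adjustment, the alpha subunit of the plastid RNA polymerase, which transcribes most photosynthesis genes, gave 0.92 ± 0.18 (limma adjusted p 0.324). The small-subunit protein rps16 gave 0.67 ± 0.18 (0.574), the trnK intron maturase matK 0.06 ± 0.34 and the beta subunit of the polymerase -0.18 ± 0.38. The list was taken from genes that the study names, chosen on these arrays, and stands as a description.

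**Figure D2:**
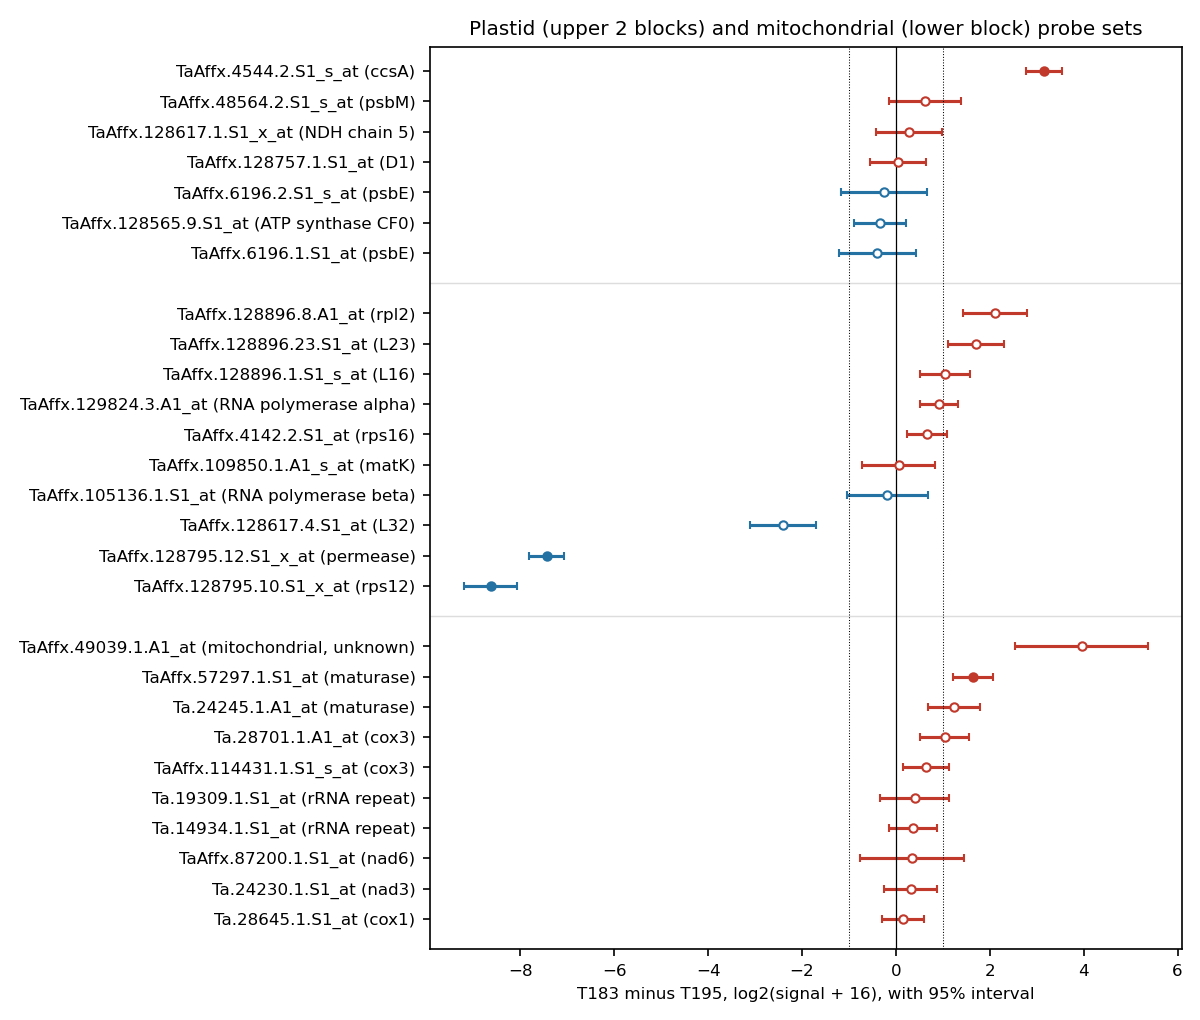
Difference between T183 and T195 on the log2(signal + 16) scale (horizontal axis, points with 95% intervals, dotted lines at 2-fold) for tested plastid probe sets of photosynthesis and electron transport (upper block) and of gene expression (middle block) and for mitochondrial probe sets (lower block), red above 0 and blue below, filled where the probe set differed. ccsA, rps12, the permease and 1 maturase are filled, and the 10 mitochondrial probe sets all lie above 0.

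At the tested mitochondrial probe sets the estimates leaned towards T183. Of 12 probe sets of mitochondrial genes 2 were left out. All 10 tested had a difference above 0, with a median of 0.52, where 48.8% of all tested probe sets lay above 0. Only 1 of them, a maturase, passed the test. At an unadjusted p of 0.05, 5 were listed by limma, where 6.4% of all tested were. The summed signal of the 10 ran from 19394 to 26585 in T183 and from 11412 to 12026 in T195. Those counts include 2 maturase probe sets whose genome of origin is not settled. Over the other 8, all above 0, the median was 0.38 and the summed signal ran from 8964 to 11675 in T183 and from 5033 to 7564 in T195. Several of these probe sets read the same gene, so they are not independent of one another. They were also taken from genes that the study names, chosen on these arrays, so the counts are a description.

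A maturase assists the splicing of introns in organelle RNA. The probe set that differed read 4284, 3469 and 4760 in T183, against 1457, 1295 and 1205 in T195, with 70.0, 21.8 and 79.5 in Chris. The lines did not overlap, and both lay above Chris. T183 was 3.12-fold above T195, by 1.64 ± 0.19 (limma adjusted p 0.0387). This call was lost in each of the 6 fits without an array, in the fit with the Chris arrays (0.207) and in that of all 15 arrays (0.239), while the difference stayed between 1.54 and 1.77. The study's annotation matches the probe set both to a nuclear maturase of Arabidopsis and to matR, a gene inside an intron of wheat mitochondrial nad1, so that its genome of origin is not settled.

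A second maturase probe set with the same matches read 10950, 6961 and 10150 in T183, against 4922, 3622 and 3257 in T195, with 114.1, 112.5 and 120.7 in Chris. Its order was the same and the lines did not overlap, but the difference of 1.24 ± 0.24 did not pass (limma adjusted p 0.324). A mitochondrial sequence of unknown function read 1115, 952.2 and 869.0 in T183, against 4.80, 72.8 and 124.7 in T195, with 890.4, 3284 and 2913 in Chris. Its difference of 3.96 ± 0.61 did not pass (0.175), with T195 arrays spread widely near the background.

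The estimates for genes of the respiratory chain lay above 0, and none passed. The 2 probe sets of cox3, a subunit of cytochrome c oxidase at the end of the chain, gave 1.05 ± 0.23 (limma adjusted p 0.441) and 0.65 ± 0.21 (0.626), and cox1 of the same complex gave 0.15 ± 0.20. Subunits of NADH dehydrogenase, its entry point, gave 0.34 ± 0.48 for nad6 and 0.31 ± 0.25 for nad3. The nad6 probe set read 1155, 743.9 and 3245 in T183, against 1238, 874.1 and 1266 in T195, with 1 array of T183 above the rest. The probe sets of the ribosomal RNA repeat gave 0.36 ± 0.22 and 0.40 ± 0.32.

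**Figure D3:**
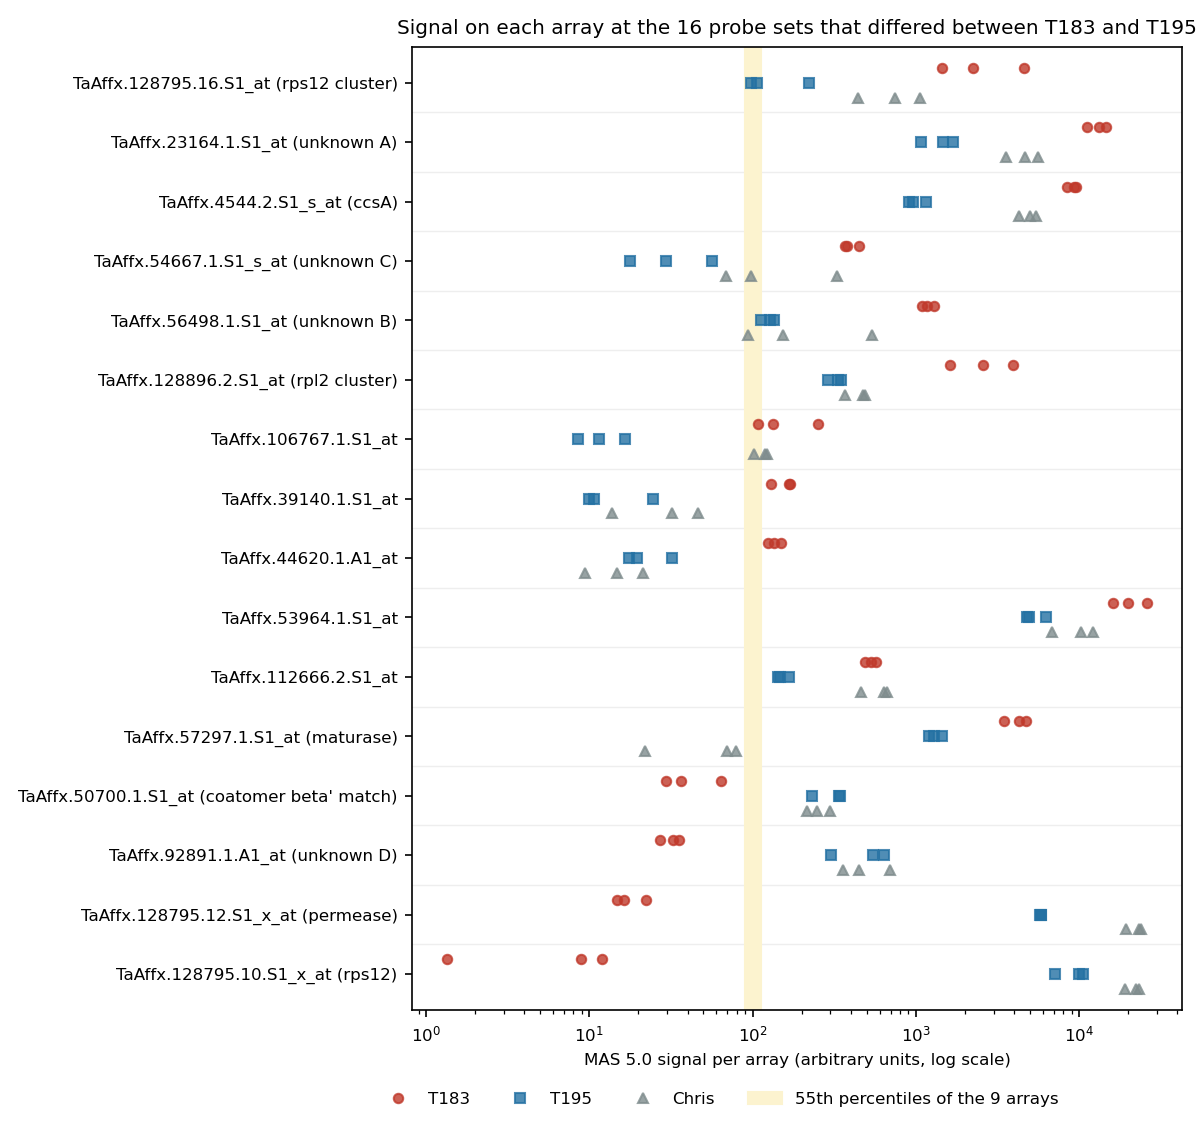
MAS 5.0 signal on each array (horizontal log axis, arbitrary units) at the 16 probe sets that differed, 3 arrays per line, with T183 as circles above T195 as squares and Chris as triangles, and the band of the 55th percentiles of the 9 arrays. No array of T183 overlaps with one of T195, and rps12 and the permease in T183 lie left of the band.

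Of the probe sets outside the organelle groups, 1 has a match to a nuclear gene. It is matched to the beta prime subunit of the rice coatomer, the coat of vesicles that travel within the secretory pathway. The signal was 29.5, 64.3 and 36.3 in T183, against 338.2, 230.8 and 342.5 in T195, with 215.4, 299.9 and 248.1 in Chris. T183 alone was dim. The difference was -2.45 ± 0.26 (limma adjusted p 0.0322), at least 2.69-fold lower in T183, and it passed in 1 of the 6 fits without an array.

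An unknown sequence, D, showed the same pattern. Its signal was 32.8, 27.0 and 35.4 in T183, against 303.5, 636.4 and 550.2 in T195, with 692.1, 446.0 and 356.0 in Chris. T183 was below the 55th percentile on each array, while T195 overlapped with Chris. The difference was -3.37 ± 0.27 (limma adjusted p 0.00848), at least 4.18-fold lower in T183.

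Several unknown sequences were higher in T183. Sequence A read 14600, 13180 and 11130 in T183, against 1461, 1076 and 1701 in T195, with 5639, 3550 and 4680 in Chris. The lines lay on either side of Chris, 9.19-fold apart, with a difference of 3.20 ± 0.22 (limma adjusted p 0.00255).

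Sequence B read 1167, 1098 and 1286 in T183, against 136.0, 112.5 and 127.1 in T195, with 94.1, 538.6 and 153.8 in Chris. T183 stood above both, 8.50-fold above T195, by 3.09 ± 0.16 (limma adjusted p 0.000496). The call at sequence B was lost in the fit with the Chris arrays (0.0734) and in that of all 15 arrays (0.0776). Sequence C read 371.0, 378.2 and 449.5 in T183, against 56.8, 29.6 and 17.7 in T195, which was below the 55th percentile on each array. Its difference was 3.10 ± 0.28 (0.0146), at least 3.70-fold higher in T183.

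The other 5 unknown sequences were higher in T183 as well, by 1.71 to 2.61 (limma adjusted p 0.0146 to 0.043). In 3 of them T195 was below the 55th percentile, with bounds of at least 1.36-fold to at least 1.52-fold, and their fitted sizes rest on the value of 16 added to low signals. Just outside the threshold, besides L32 and the further member of the rpl2 cluster, were 3 probe sets of no known identity, at -2.08 (limma adjusted p 0.0785), 2.05 (0.0793) and -1.45 (0.0855).

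The 16 probe sets were also set against Chris. In the fit of 9 arrays only T183 passed against Chris at 5 of them, only T195 at 4, both lines at 2 and neither at 5, and a missed threshold does not show that a line equalled Chris. Over all tested probe sets 25 differed between T183 and Chris (0.0893%), 7 higher (0.025%) and 18 lower (0.0643%). Between T195 and Chris 26 differed (0.0929%), 2 higher (0.00715%) and 24 lower (0.0857%). Without adjustment 1734 (6.2%) had a p under 0.05 between T183 and Chris in limma and 1130 (4.04%) in the Welch test, and 2821 (10.1%) between T195 and Chris in limma and 1790 (6.4%) in the Welch test. The Chris arrays are shared by both comparisons. Without Chris replicate 1, 17 were higher and 17 lower for T183, and 15 were higher and 21 lower for T195. Without Chris replicate 2, 9 were higher and 8 lower for T183, and 4 were higher and 12 lower for T195. Without Chris replicate 3, 5 were higher and 8 lower for T183, and 4 were higher and 11 lower for T195. The balance of directions thus moved with the Chris arrays fitted. Without Chris replicate 3 the counts were 13 for T183 and 15 for T195, without Chris replicate 2 they were 17 for T183 and 16 for T195, without T183 replicate 1 that of T183 was 15, and without T195 replicate 3 that of T195 was 14.

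At rps12 only T183 passed against Chris, with -9.87 ± 0.23 (limma adjusted p 2.01e-08), while T195 gave -1.24 ± 0.23 (0.121) with all its arrays below those of Chris. Sequence D gave -3.38 ± 0.30 (0.00175) in T183 and -0.01 ± 0.30 (0.994) in T195. For the coatomer match the values were -2.22 ± 0.25 (0.01) in T183 and 0.23 ± 0.25 (0.816) in T195. The member of the rpl2 cluster was higher in T183, by 2.49 ± 0.28 (0.0116), with -0.42 ± 0.28 (0.679) in T195. At each of these the estimate of T195 lay nearer to Chris than that of T183.

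At ccsA only T195 passed against Chris. The gene gave 0.90 ± 0.16 (limma adjusted p 0.17) in T183 and fell by 2.26 ± 0.16 on the log2 scale (0.000379) in T195. Sequence A gave 1.50 ± 0.23 (0.0661) in T183 and -1.70 ± 0.23 (0.0288) in T195. At both, all T183 arrays lay above those of Chris. The plastid L23 gave -0.18 (0.96) in T183 and -1.89 (0.0284) in T195, and the RNA polymerase alpha subunit -1.02 (0.26) in T183 and -1.94 (0.00618) in T195, although neither passed between T183 and T195.

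Both lines passed at the maturase, which rose by 5.94 ± 0.32 (limma adjusted p 3.58e-05) in T183 and by 4.30 ± 0.32 (0.000435) in T195, and at the permease, which changed by -9.36 ± 0.15 (1.64e-09) in T183 and by -1.92 ± 0.15 (0.000844) in T195. In each case T183 lay farther from Chris. At the unannotated member of the rps12 cluster neither line passed against Chris, with 1.78 ± 0.46 (0.524) in T183 and -2.27 ± 0.46 (0.171) in T195. Neither line passed at sequence B, with 2.46 ± 0.47 (0.233) in T183 and -0.63 ± 0.47 (0.714) in T195, or at sequence C, with 1.47 ± 0.46 (0.675) in T183 and -1.64 ± 0.46 (0.33) in T195.

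**Figure D4:**
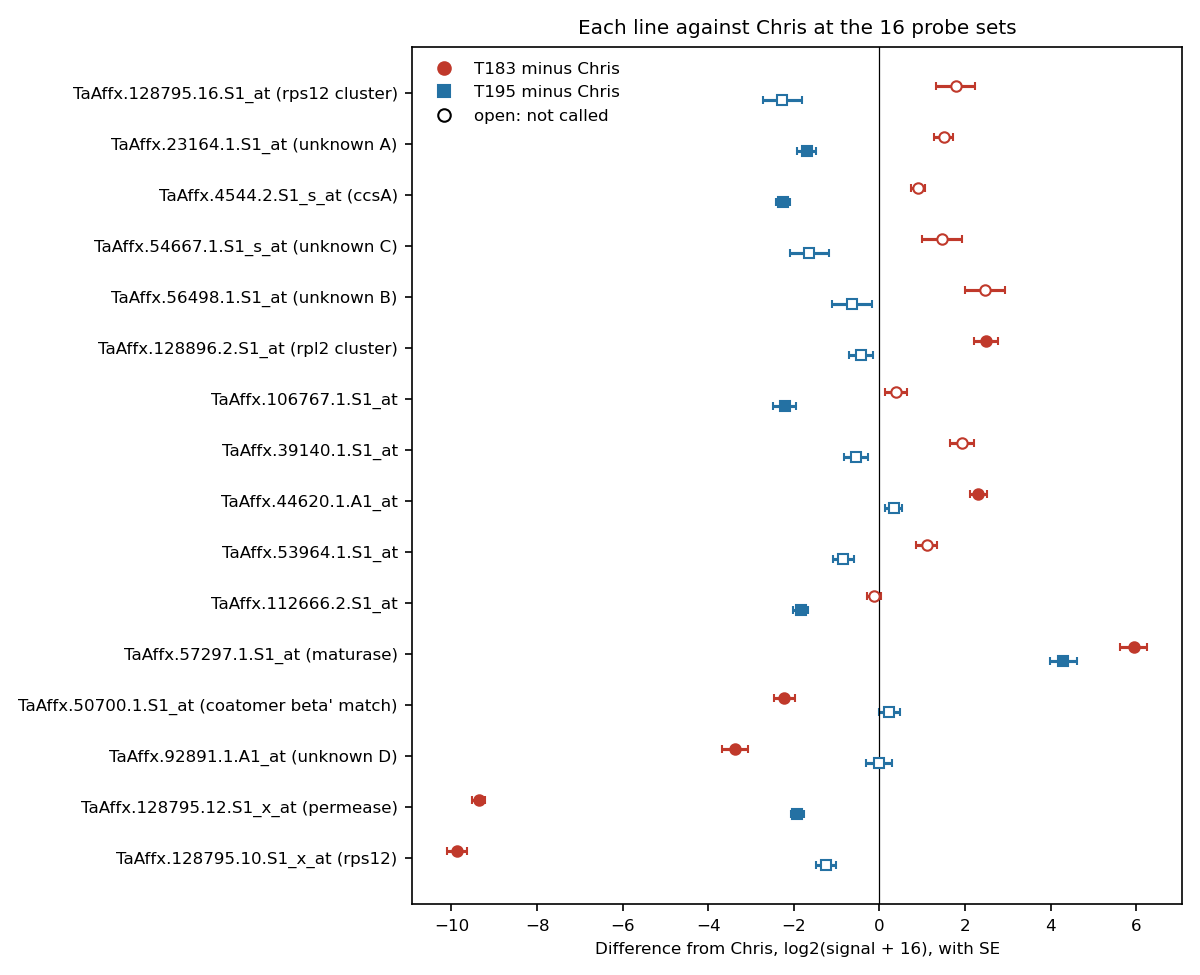
Difference of each line from Chris on the log2(signal + 16) scale with its SE (horizontal axis) at the 16 probe sets, T183 as circles above T195 as squares, filled where the line differed from Chris. At ccsA T195 is filled at -2.26, and at rps12 T183 is filled at -9.87.

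The sequences that the study lists for T183 or T195 against Chris separated the lines in part. Of 31 on the array 28 were tested, of which 3 were higher in T183, 4 were lower and 21 did not pass, with a median of 0.31. They were chosen on these arrays, so the counts are a description. Besides those given above, an unknown sequence gave 1.86 ± 0.34 (limma adjusted p 0.289) and a match to a vesicle-associated membrane protein -1.54 ± 0.27 (0.265), each without overlap of the lines. A zinc finger of the CONSTANS-like class, which in Arabidopsis includes regulators of flowering by day length, read 41.8, 97.5 and 60.3 in T183, against 162.7, 122.4 and 143.2 in T195. It gave -0.99 ± 0.26 (0.536). A splicing factor with a PWI domain averaged 20.8 in T183 and 30.9 in T195, with 3843 in Chris, and was left out since both lines lay below the percentile. Another splicing factor of this kind gave 0.36 ± 0.24 (limma adjusted p 0.897).

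Of the enzymes on that list, an ACC oxidase, which makes ethylene, gave 0.09 ± 0.21, and a hydroxycinnamoyl transferase of phenylpropanoid metabolism gave 0.13 ± 0.31. Both lay below Chris in each line, at means of 228.7 in T183, 219.2 in T195 and 716.4 in Chris for the ACC oxidase, and of 1672 in T183, 1479 in T195 and 3735 in Chris for the transferase.

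No tested probe set of the nuclear genes that answer to the plastid passed between the cytoplasms. Of 11 probe sets of LHCII, the chlorophyll-binding antenna of photosystem II, 5 were tested and 6 were left out. None of the 5 passed in limma (1 at an unadjusted p of 0.05, and 0 in the Welch test), and their median was -0.27. The probe set farthest from 0 read 2673, 1898 and 2182 in T183, against 2647, 8912 and 6295 in T195. It gave -1.24 ± 0.41 (limma adjusted p 0.625), and T195 replicate 1 lay among the T183 arrays. A rubisco small subunit gave -0.72 ± 0.39 (0.842), and psbX, a small nuclear-encoded subunit of photosystem II, gave 0.56 ± 0.23 (0.743).

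No tested probe set of photoprotection passed either. Of 8 probe sets of APX4, a peroxidase-like protein of the thylakoid, and of the early light-induced proteins (ELIP), which bind chlorophyll under light stress, 6 were tested. None of the 6 passed in limma (1 at an unadjusted p of 0.05, 0 in the Welch test). Their median was 0.02, and the ELIP probe set farthest from 0 gave 0.66 ± 0.27 (limma adjusted p 0.747).

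For tetrapyrrole synthesis and retrograde signalling 8 of 11 probe sets were tested. All 8 lay below 0, where 51.0% of all tested did, and none passed in limma, at an unadjusted p of 0.05 or in the Welch test (0 each). Their median was -0.23. Several of the 8 read the same gene, so they are not independent of one another. HEMA1, whose product glutamyl-tRNA reductase makes the first committed step towards chlorophyll, gave -0.23 with a 95% interval from -0.69 to 0.24 and -0.29 with one from -0.71 to 0.14. Flu, its repressor in Arabidopsis, gave -0.44, -0.13 and -0.01 at its 3 probe sets, HSP70-1 gave -0.04, and LSD1, a zinc finger that in Arabidopsis restrains cell death, gave -0.63 and -0.22. The lowest of these intervals reached -1.06 for Flu and -1.58 for LSD1, past 2-fold.

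Of the nuclear lists given here, the median farthest from 0 was that of lipoxygenases, which start the synthesis of jasmonate, a hormone of wounding and defence. All 5 tested probe sets lay below 0, from -1.70 to -0.91, with a median of -1.21. None passed in limma, where 2 were listed at an unadjusted p of 0.05 and 0 in the Welch test. A probe set similar to LOX3 read 109.8, 90.2 and 69.9 in T183, against 156.4, 494.7 and 429.3 in T195, with 15.2, 169.8 and 297.9 in Chris, and gave -1.70 ± 0.40 (limma adjusted p 0.493). A LOX2 probe set read 1921, 398.0 and 1340 in T183, against 1126, 5365 and 5362 in T195, and gave -1.64 ± 0.73 (0.789). In both, T195 replicates 2 and 3 were above replicate 1, and several probe sets of the list share sequence.

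**Figure D5:**
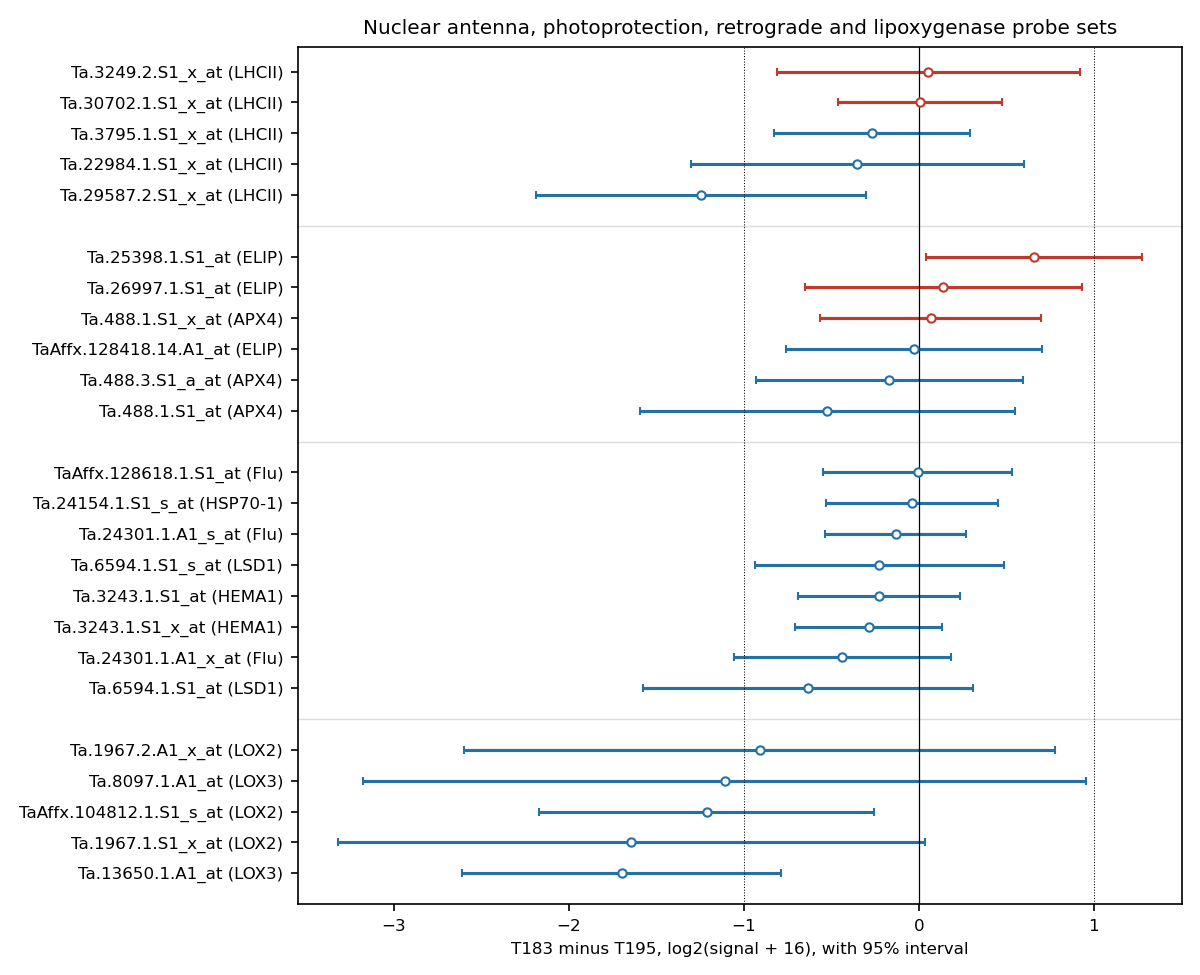
Difference between T183 and T195 on the log2(signal + 16) scale (horizontal axis, points with 95% intervals, dotted lines at 2-fold) for tested nuclear probe sets of, from top to bottom, LHCII, photoprotection, retrograde signalling and lipoxygenases, red above 0 and blue below. All points are open since none passed, and the lipoxygenases lie between -1.70 and -0.91.

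Defence genes and the remaining lists were centred near 0. Of 22 probe sets of biotic stress 17 were tested, and none passed in limma (1 at an unadjusted p of 0.05, 1 in the Welch test), with a median of 0.03. A powdery mildew resistance protein read 848.3, 899.2 and 1056 in T183, against 450.1, 600.0 and 355.2 in T195, a difference of 0.998 ± 0.221 (limma adjusted p 0.457). WIR1, induced in wheat by pathogens, gave -0.35 ± 0.27, and WRKY70, a transcription factor of salicylate and jasmonate signalling in Arabidopsis, gave -0.11 ± 0.57 and 0.03 ± 0.51.

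Medians were 0.08 for the 5 tested of 8 probe sets of fatty acyl-CoA reductases of wax and pollen wall lipids, -0.15 for 5 probe sets of cell death and 0.28 for 3 probe sets of POP2, the GABA transaminase. None of these 13 passed in limma, at an unadjusted p of 0.05 or in the Welch test (0 each).

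By compartment, 50 of 63 probe sets placed in the chloroplast were tested. Of these, 1 was higher in T183, 2 were lower and 47 did not pass, and the median was -0.05. Of 22 placed in the mitochondrion 19 were tested, with 1 higher, none lower and 17 of 19 above 0 (median 0.34). At an unadjusted p of 0.05 in limma 7 were higher and 1 lower, where 3.61% and 2.79% of all tested were. The study drew its entries from these arrays, so the counts are a description. By functional class, the 8 tested probe sets of hormone metabolism, which include lipoxygenases, had a median of -1.01, and the 6 of mitochondrial electron transport, where the study files ccsA, had one of 0.49 with 6 of 6 above 0. In the classes of protein, stress, transport, lipid and amino acid metabolism the medians lay between -0.10 and 0.12.

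Outside these lines, 4 of the 16 probe sets also differed between TH237, with the cytoplasm of Hordeum chilense, and its control T20 in the fit of all 15 arrays, where 2.17% of the tested probe sets did.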

How the data were processed

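Per the labels the authors deposited MAS 5.0 signals, linear intensities with 1 value for a probe set on each Affymetrix array, and the trimmed mean was found to be 500.3 on every array. The version of MAS5 is not given in the sources used here, and the study's methods name RMA for its own summaries, so values here can differ from those. Samples were grouped by their labels. After 16 was added and log2 taken, limma 3.58.1 in R 4.3.3 was fitted to the 6 arrays of T183 and T195 (4 residual and 3.97 prior degrees of freedom, prior SD 0.26), and to 9 arrays for the comparisons with Chris. P-values were adjusted (Benjamini-Hochberg) over the 27989 tested, and the number of arrays limits the precision. Errors are standard errors, n = 3 arrays per line, and p-values measure the spread between these arrays. The code was tested on simulated data.

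Replicate numbers did not pair the arrays (correlations of the deviations of same-numbered arrays of T183 and T195 between -0.01 and 0.03), so no block was used. The members and gene lists were chosen with earlier results of these data known. Named were the probe sets that differed (unknown ones only for the 5 largest in each direction), the 5 nearest misses of at least 2-fold, the genes that the study names or lists for these lines, the members of clusters with a differing organelle probe set, and the 4 largest of other lists. The plots show all 16. Gene identities are those of the study's annotation, of which 560 entries were used, since the platform annotation names 1273 probe sets, 1272 of them matched by gene ID, and none with several symbols. Lists by organelle gene symbol held 1 and 0 probe sets and were not used. Alternatives covered the added value, the filter, scaling, arrays in the fit, fold limit, the methods' t-test and each replicate, and signals raised to the 55th percentile, chosen after seeing the data.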

Additional observations from a re-analysis of the deposited data

Results flagged for a closer look

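At 6 probe sets every array of T183 lay on one side of the Chris arrays and every array of T195 on the other, and the difference between the lines, tested in limma on 6 arrays, was 4.05 for the unannotated member of the rps12 cluster, 3.20 for sequence A, 3.16 for ccsA, 3.10 for sequence C, 2.91 for the unannotated member of the rpl2 cluster and 1.94 for a further unknown sequence, T183 being higher at each. This last one, the brightest in T183 of the 16, was singled out after its values were seen, and it read 20080, 26080 and 16160 in T183, against 4781, 4925 and 6306 in T195, with 10210, 6824 and 12250 in Chris. Its limma adjusted p of 0.043 was passed in 0 of the 6 fits without an array. The 6 probe sets were found among the 16 picked for a difference between the lines, and the share over all tested was not counted. At none of the 6 did both lines pass against Chris. At the member of the rpl2 cluster the T195 arrays reached 350.6, against 366.5 on the lowest Chris array.

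Arrays outside the comparison, those of TH237 with the cytoplasm of Hordeum chilense and of its own control T20, also differed at 4 of the 16 probe sets in a limma fit of 15 arrays, where 608 of the 27989 tested (2.17%) did. The difference TH237 minus T20 was -3.60 for rps12 (limma adjusted p 4.09e-07), -4.26 for the permease (1.95e-08), -1.64 for ccsA (0.00275) and 2.60 for the maturase (0.00388).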

How the results depend on the processing

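The number of probe sets that differed between T183 and T195 (16) was 5 with no filter on low values, which tests more probe sets, 0 with the methods' t-test adjusted over all tested (1218 at an unadjusted p of 0.05, and 1791 in limma) and 6 with that test after the 2-fold limit. Without 1 array it ran from 5 to 12. Against Chris, T183 (25) gave 16 with 1 added before the log2, 1 with the methods' t-test, 9 with it after the 2-fold limit and 13 to 34 without 1 array. T195 against Chris (26) gave 40 with 64 added, 56 in the fit of all 15 arrays, 41 with signals raised to the 55th percentile, 0 with the methods' t-test (1790 at an unadjusted p of 0.05, and 2821 in limma), 17 with it after the 2-fold limit and 14 to 36 without 1 array. The cause was not tested. With the replicate block the counts were 11, 21 and 19, and correlations of same-numbered arrays gave no sign of pairing. None of the 16 probe sets changed direction under any of the 19 alternatives, but this is no test of direction. As no arrays of the lines overlapped at the 16, neither leaving out an array nor changing the added value could reverse one. All 16 passed with quantile normalization, 13 in the fit with Chris and 12 with signals raised to the percentile. This last alternative was chosen after seeing the data. All 16 also passed with the stricter filter, which asks for signals above the percentile on every array of a line. That filter is no test of them. Each of the 16 met it already in its brighter line, the estimates stayed the same and fewer probe sets were adjusted for. Signals near the 55th percentile limit the sizes at the 8 probe sets where the dimmer line lay below it on each array.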
